A study of Mus musculus with 2 samples.

Results

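The genes described here are 10 members of the BCL2 family, which decide whether a stressed cell survives or dies. They were taken by symbol from the 32285 genes of the deposited count matrix, and each symbol matched 1 row. Bcl2, Bcl2l1 (the gene of BCL-XL) and Mcl1 encode the survival proteins. Bcl2l11 (BIM), Pmaip1 (NOXA), Bbc3 (PUMA) and Bmf encode BH3-only death inducers. Bax and Bak1 encode the pore formers, and Bcl2l14 is a less studied relative.

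The family acts at the outer membrane of the mitochondrion. BAX and BAK open pores there, cytochrome c leaks out, and APAF1 and caspase-9 then start the caspase cascade. BCL2, BCL-XL and MCL1 hold BAX, BAK and the BH3-only proteins in check, and BH3-only proteins release that hold when growth factors are lost, DNA is damaged or the endoplasmic reticulum is stressed. In mice, hepatocytes are known to depend on both BCL-XL and MCL1, and BCL2 is best known as a survival protein of lymphocytes.

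Nuclei came from frozen mouse liver, from residual hepatocellular carcinoma (HCC) that had been cut out under a microscope, and were sequenced as droplet-based 3' libraries. The labels give 2 samples of 1 group, MRD-HCC, from liver with HCC. They name no strain, age, tumour driver, treatment or tumour-free liver. The files hold 1 pooled matrix, in which all 17169 called barcodes are distinct, carry 1 suffix and name no sample, so there are no replicates and no test between samples. Every interval below is a 95% interval that covers counting error of unique molecular identifiers (UMIs) in these pooled nuclei only.

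After filters 16411 nuclei remained, and 5674 of them (34.6%) were assigned to 1 of 14 gates by marker genes. A further 382 nuclei passed the markers of more than 1 lineage and were left out as possible doublets. The other 10355, with a median of 1464 UMIs, passed no gate. Tumour nuclei fell into a hepatocyte-like gate (242 nuclei, median 6566 UMIs) and a Pkhd1-high gate (1760 nuclei, median 7912), beside a ductal gate positive for Asz1 or Tinag (380 nuclei, median 4196). The hepatocyte gate held 1296 nuclei with a median of 16881 UMIs, so it holds deeper nuclei than the others. By the stricter gate, 192 of the 242, 567 of the 1760 and 504 of the 1296 lay near the limit of their gate.

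The gates were set by markers, so the levels of those markers describe the gates and are no check of them. Ccnd3 was asked for in hepatocyte-like tumour and barred from hepatocytes, and Pkhd1 was asked for in ductal nuclei. The number of hepatocyte markers met, Hnf4a among them, was capped in Pkhd1-high and ductal nuclei. Ccnd3, a cyclin, stood at 6185 UMIs per 1000000 UMIs (CPM) in hepatocyte-like tumour, 5823 in Pkhd1-high tumour and 6316 in ductal nuclei, against 172 in hepatocytes, so it does not separate the first 3. Gpc3, a foetal liver surface protein, stood at 806, 175 and 639 CPM in the same order, against 5.94 in hepatocytes. Hnf4a, a hepatocyte transcription factor, was at 343 CPM in hepatocyte-like tumour and 71.2 in Pkhd1-high tumour, against 358 in hepatocytes. Other genes of the hepatocyte list differed more between hepatocyte-like tumour and hepatocytes. Cps1 was at 1071 against 3265 CPM, and Kyat3, which was barred from the tumour gate, at 26.9 against 834. Apob went the other way, at 1682 against 1377 CPM. Pkhd1 was at 1487 CPM in hepatocyte-like tumour, 2942 in Pkhd1-high tumour and 5370 in ductal nuclei, against 128 in hepatocytes. Afp, a foetal serum protein, was at 36.5 CPM in hepatocyte-like tumour, against 8.97 in hepatocytes and 33.2 in free RNA. Of the gates, the next highest level was 12.1 CPM, in stellate nuclei. By the estimate given below, free RNA made up 16.6% of the UMIs of hepatocyte-like tumour. Afp was itself among the foetal markers of that gate. The word tumour rests on such markers alone. Ductal nuclei carried Ccnd3 and Gpc3 well above hepatocytes too, and whether they are tumour nuclei was not tested. The ductal gate is thus not taken as a gate of normal duct.

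RNA that floats free of nuclei was measured in 49929 uncalled barcodes of 500 to under 850 UMIs. Haemoglobin RNA, taken as a tracer, put the free RNA share at 16.6% of the UMIs of hepatocyte-like tumour nuclei, 13.9% of Pkhd1-high nuclei and 22.5% of ductal nuclei, against 7.78% in hepatocytes. Elsewhere it ran to 47.6%, in T cells.

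RefSeq promoters (GRCm38.p6) were at hand for 9 of the 10 members, 17 promoters in all. The 250 bases before a start site are shown for the 4 members with the most UMIs, of which Bcl2, Bcl2l1 and Bcl2l11 stood high together in the tumour gates described below. Capitals mark the motifs searched on both strands, which were GTAAACA (forkhead, the FOXO element), CACGTG (E-box), TGACGTCA (cAMP response element), TGANTCA (AP-1), GGGCGG (GC box), CCAAT, TTTNGCGC (E2F) and ACGTGC (hypoxia response core). ACGTGC can overlap CACGTG by all but 1 of its letters.
Bcl2, chr1:106714291-106714540, minus strand: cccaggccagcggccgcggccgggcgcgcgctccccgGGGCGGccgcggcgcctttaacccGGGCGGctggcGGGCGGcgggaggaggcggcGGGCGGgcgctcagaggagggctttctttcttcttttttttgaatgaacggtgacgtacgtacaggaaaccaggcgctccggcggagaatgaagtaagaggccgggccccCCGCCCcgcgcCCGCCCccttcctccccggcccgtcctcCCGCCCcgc
Bcl2l1, chr2:152830718-152830967, minus strand: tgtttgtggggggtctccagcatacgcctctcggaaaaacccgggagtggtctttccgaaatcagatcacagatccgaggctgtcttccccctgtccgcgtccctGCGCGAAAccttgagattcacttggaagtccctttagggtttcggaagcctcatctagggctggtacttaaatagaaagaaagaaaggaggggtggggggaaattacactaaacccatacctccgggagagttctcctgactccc
Bcl2l11, chr2:128125788-128126037, plus strand: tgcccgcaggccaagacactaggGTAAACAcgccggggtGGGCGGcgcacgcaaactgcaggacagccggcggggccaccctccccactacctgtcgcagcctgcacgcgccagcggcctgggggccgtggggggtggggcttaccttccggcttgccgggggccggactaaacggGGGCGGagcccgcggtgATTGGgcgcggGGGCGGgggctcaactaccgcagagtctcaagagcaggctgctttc
Mcl1, chr3:95658471-95658720, plus strand: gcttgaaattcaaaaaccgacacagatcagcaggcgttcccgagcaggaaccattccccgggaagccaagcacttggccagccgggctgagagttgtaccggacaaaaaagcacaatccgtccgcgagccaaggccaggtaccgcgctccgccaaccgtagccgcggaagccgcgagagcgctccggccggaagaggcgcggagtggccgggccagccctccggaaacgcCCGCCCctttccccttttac

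The Bcl2 window is rich in GC boxes, with 7 matches, and 76.0% of the bases from 250 before to 50 after its start site are G or C. The Bcl2l11 window shown, 1 of 2 listed, holds 3 GC boxes, a CCAAT box and the forkhead element, which starts 227 bases before the start site. The other Bcl2l11 window holds 3 GC boxes, 2 CCAAT boxes and no forkhead element. FOXO factors are known to switch on Bcl2l11 when growth factor signals fall. Over windows of 300 bases, the forkhead element was found in 3.65% of all 32851 promoters, the GC box in 35.7% and CCAAT in 37.4%. The Bcl2l1 window shown, 1 of 3 listed, holds an E2F match, which 1.38% of promoters hold, and its other 2 windows hold no match. The Mcl1 window holds 1 GC box. A match is a run of letters and no more.

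Among the survival genes, Bcl2 showed the widest range of levels over the gates. It was at 77.3 CPM (65.2 to 91.0) in hepatocyte-like tumour nuclei and 104 CPM (98.6 to 109) in Pkhd1-high nuclei, against 5.16 CPM (4.30 to 6.15) in hepatocytes and 32.1 CPM in free RNA. Ductal nuclei had 176 CPM (157 to 197). Hepatocytes lay below the other 13 gates and below free RNA, and all other gates lay above it. Free RNA of barcodes of 1 to 100 UMIs held more Bcl2, 52.4 CPM (44.8 to 60.9), and 12 of the 14 gates lay above that level, with mesothelium overlapping it. The fold over hepatocytes was 14.98 (11.7 to 19.2) in hepatocyte-like tumour, 20.1 (16.7 to 24.2) in Pkhd1-high tumour and 34.1 (27.6 to 42.3) in ductal nuclei. Free RNA alone would give 2.50 CPM of the hepatocyte level, and with free RNA subtracted (the profile of 500 to under 850 UMIs) the log2 ratios became 4.49 in hepatocyte-like tumour and 4.90 in Pkhd1-high tumour, against 3.67 and 4.08 as counted.

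T cells, where BCL2 is known as a survival factor, had the highest Bcl2 level at 814 CPM (730 to 906), apart from every other gate. Free RNA would give 15.3 CPM of it. Other endothelial nuclei (358 CPM) and stellate nuclei (354 CPM), the vitamin A storing pericytes of the liver, came next and overlapped. Pericytes and smooth muscle (304 CPM), sinusoidal endothelium (255), fibroblasts (238) and B cells (203) followed, each overlapping its neighbour. The B cell gate held only 39 nuclei, all of them in a cluster of mixed lineages. Kupffer nuclei were the largest group of that cluster, at 19.6% of its gated nuclei, so the same limit touches the Kupffer gate. Ductal nuclei were apart from macrophages (115 CPM), the next below. Pkhd1-high tumour, Kupffer cells (82.8 CPM), mesothelium (79.2) and hepatocyte-like tumour then overlapped in turn.

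Since stroma and T cells carry more Bcl2 RNA than the tumour gates, their markers were summed in those gates. The nuclei that passed markers of more than 1 lineage had already been left out. The T cell list (14 genes) summed to 54.8 CPM in hepatocyte-like tumour and 34.7 in Pkhd1-high tumour, against 19.4 in hepatocytes and 3890 in T cells. At their free RNA shares, free RNA alone would bring 9.01, 7.56 and 4.23 CPM of it to the 2 tumour gates and hepatocytes. Bcl11b made up 25.2 and 18.9 CPM of the sums in the tumour gates. Cd3e, a subunit of the T cell receptor complex, was at 0.537 and 0.503 CPM there, against 0.164 in hepatocytes, and Cd8a was at 0 in all 3.

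The endothelial list (11 genes) summed to 178 and 159 CPM in the tumour gates, against 48.5 in hepatocytes, where free RNA would bring 71.99, 60.4 and 33.8 CPM. Flt1, a receptor of VEGF, made up 59.1 and 94.8 CPM of the tumour sums. The stellate list (8 genes) summed to 96.1 and 69.9 CPM in the tumour gates, against 53.2 in hepatocytes, where free RNA would bring 60.9, 51.1 and 28.6 CPM. The macrophage list (11 genes) summed to 302 and 136 CPM in the tumour gates, against 66.9 in hepatocytes, where free RNA would bring 142, 119 and 66.8 CPM. Cybb, a subunit of the phagocyte oxidase, made up 130 CPM of the sum in hepatocyte-like tumour. Each list thus summed to more than free RNA would bring in both tumour gates. The part of such RNA in the Bcl2 level was not tested beyond the subtraction of free RNA.

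Bcl2l1 was highest in the epithelial gates other than hepatocytes. It was at 248 CPM (226 to 272) in hepatocyte-like tumour, 397 CPM (387 to 407) in Pkhd1-high tumour and 461 CPM (429 to 493) in ductal nuclei, against 70.9 CPM (67.6 to 74.3) in hepatocytes and 83.2 CPM in free RNA. The ductal, Pkhd1-high and hepatocyte-like tumour gates were apart from each other and took the top 3 places, although the interval of the hepatocyte-like tumour gate overlapped that of T cells (185 CPM), the next gate. The other 10 gates ran between 105 CPM in fibroblasts and 185 CPM in T cells, with hepatocytes lowest and apart from fibroblasts. The fold over hepatocytes was 3.50 (3.15 to 3.88) in hepatocyte-like tumour, 5.60 (5.31 to 5.91) in Pkhd1-high tumour and 6.50 (5.97 to 7.07) in ductal nuclei.

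Mcl1, whose protein turns over within hours or less and is controlled largely after transcription, differed least of the survival genes. Its level was 80.6 CPM (68.2 to 94.5) in hepatocyte-like tumour, 103 CPM (97.6 to 108) in Pkhd1-high tumour and 122 CPM (106 to 139) in ductal nuclei, against 52.8 CPM (49.996 to 55.8) in hepatocytes and 89.4 CPM in free RNA. Macrophages had the highest Mcl1 level, 214 CPM (170 to 265). Intervals of all neighbours in the order overlapped. The fold over hepatocytes was 1.52 (1.28 to 1.81) in hepatocyte-like tumour, whose Mcl1 interval included the free RNA level, and 1.94 (1.80 to 2.09) in Pkhd1-high tumour, under the 2-fold limit. Pkhd1-high tumour passed that limit at a log2 ratio of 1.06 once free RNA was subtracted. In ductal nuclei the Mcl1 fold was 2.31 (1.99 to 2.67). Free RNA would bring 14.8 CPM of Mcl1 to hepatocyte-like tumour, 12.4 to Pkhd1-high tumour and 6.95 to hepatocytes.

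How many gates lay above free RNA depended on which barcodes stood for it. Against free RNA of 500 to under 850 UMIs, 12 of 14 gates lay above it for Bcl2l1 and 9 for Mcl1. Against free RNA of 1 to 100 UMIs, with 133 CPM of Bcl2l1 and 108 CPM of Mcl1, 6 did for Bcl2l1, both tumour gates among them, and 2 for Mcl1, the macrophage and B cell gates. For Bcl2l11 the count was 8 of 14 with either profile.

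**Figure D1:**
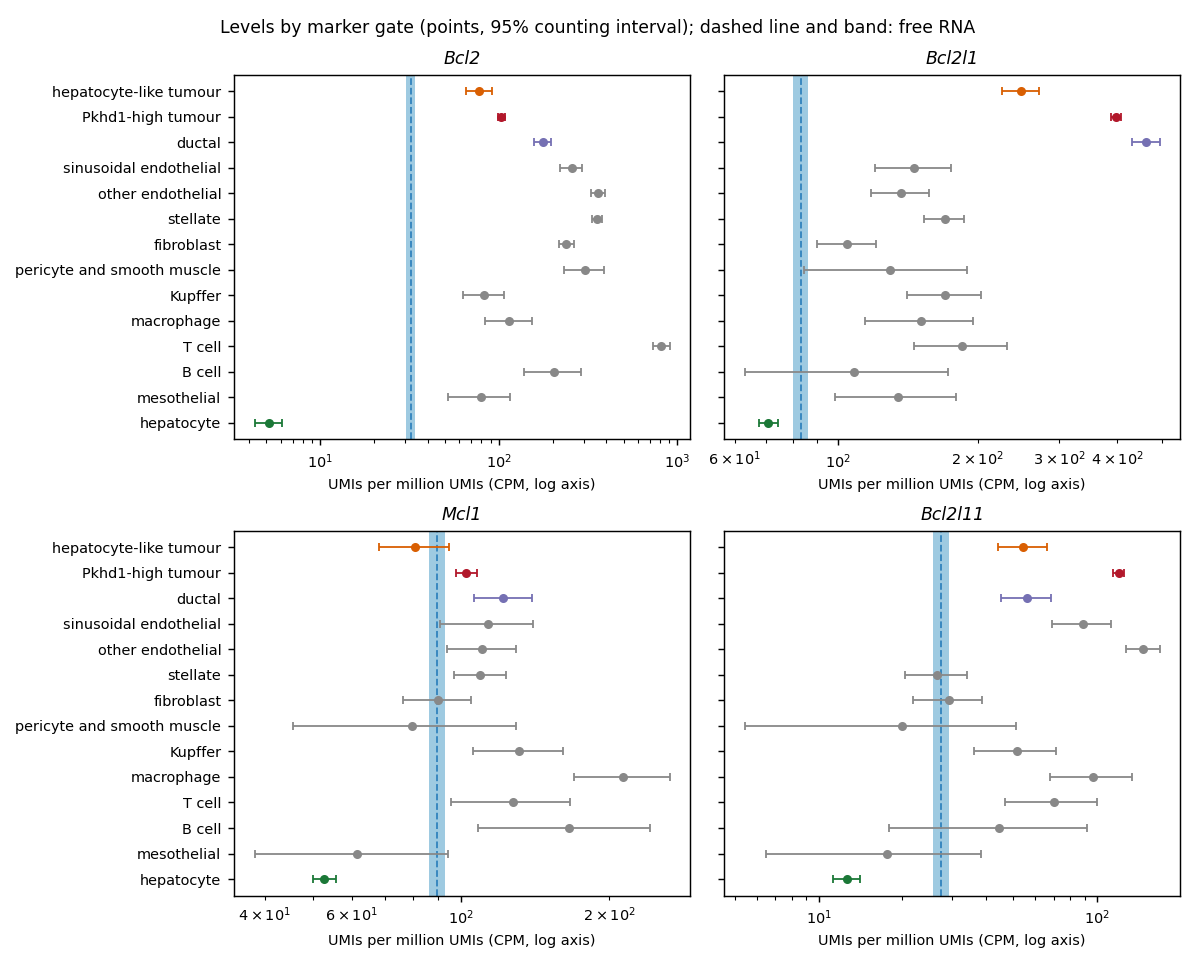
Levels of Bcl2, Bcl2l1, Mcl1 and Bcl2l11 in the 14 marker gates, in CPM on log axes; points are pooled levels, bars 95% counting intervals, and the dashed line with its band the level in free RNA with its interval. For Bcl2 and Bcl2l11 both tumour gates lie right of the free RNA line, and hepatocytes, at 5.16 and 12.6 CPM, lie left of it.

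The make-up of the survival genes differed between gates as well. Of the UMIs of Bcl2, Bcl2l1 and Mcl1 together, Bcl2 took 19.05% (16.3 to 22.0) in hepatocyte-like tumour, 17.2% (16.4 to 17.9) in Pkhd1-high tumour and 23.2% (20.96 to 25.6) in ductal nuclei, against 4.01% (3.35 to 4.75) in hepatocytes and 15.7% in free RNA. Mcl1 took 19.8% (17.1 to 22.9) in hepatocyte-like tumour, 17.0% (16.3 to 17.8) in Pkhd1-high tumour and 16.1% in ductal nuclei, against 41.0% (39.3 to 42.7) in hepatocytes and 43.6% in free RNA. Bcl2l1 was the leading gene of the 3 in these gates, with 61.1%, 65.8% and 60.7%, against 55.0% in hepatocytes. Bcl2 led in T cells (72.3%), in both endothelial gates, in stellate nuclei, in fibroblasts and in pericytes. In the B cell gate Bcl2 (42.7%; 31.3 to 54.6) and Mcl1 (34.7%; 24.0 to 46.5) overlapped on 75 UMIs. In macrophages Mcl1 (44.6%; 37.3 to 52.1) overlapped Bcl2l1 (31.5%; 24.9 to 38.8). These shares compare gates, not genes, since UMIs of nuclear RNA were not set per gene length.

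**Figure D2:**
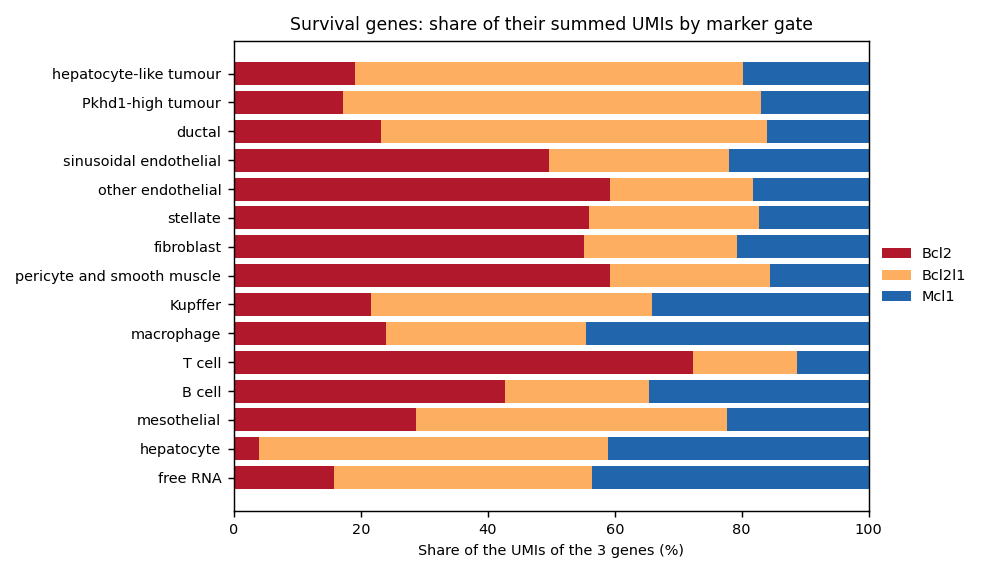
Share of the summed UMIs of Bcl2, Bcl2l1 and Mcl1 that each gene took in the 14 gates and in free RNA, in percent. Bcl2l1 takes 61.1% and 65.8% in the 2 tumour gates, and Bcl2 only 4.01% in hepatocytes.

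Bcl2l11 was the BH3-only gene with the most UMIs, and it set the 2 tumour gates apart. Its level was 54.2 CPM (44.2 to 65.9) in hepatocyte-like tumour, 120 CPM (114 to 125) in Pkhd1-high tumour and 55.8 CPM (45.3 to 68.0) in ductal nuclei, against 12.6 CPM (11.2 to 14.1) in hepatocytes and 27.5 CPM in free RNA. The hepatocyte-like tumour and ductal intervals overlapped, and the Pkhd1-high interval lay above both. Only other endothelial nuclei, at 146 CPM (126 to 167), had a higher Bcl2l11 level than Pkhd1-high tumour. The fold over hepatocytes was 4.30 (3.399 to 5.40) in hepatocyte-like tumour, 9.48 (8.40 to 10.7) in Pkhd1-high tumour and 4.42 (3.49 to 5.57) in ductal nuclei.

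Pmaip1 and Bmf were sparse. Pmaip1 had 8 UMIs (4.30 CPM) in hepatocyte-like tumour, 112 (7.04 CPM; 5.80 to 8.47) in Pkhd1-high tumour and 24 (13.7 CPM; 8.75 to 20.3) in ductal nuclei, against 7 (0.287 CPM) in hepatocytes and 4.38 CPM in free RNA. It was above free RNA only in the Pkhd1-high, ductal and macrophage gates, the last with 9 UMIs (23.4 CPM; 10.7 to 44.5). Its fold over hepatocytes was 24.6 (11.5 to 62.5) in Pkhd1-high tumour and 47.7 (19.9 to 131) in ductal nuclei. Free RNA alone would give 0.341 CPM in hepatocytes, more than was found there, so these folds are over a level of background. Bmf, whose protein is held by the cytoskeleton in healthy cells, had 5 UMIs (2.69 CPM) in hepatocyte-like tumour, 78 (4.90 CPM; 3.88 to 6.12) in Pkhd1-high tumour and 13 (7.40 CPM) in ductal nuclei, against 9 (0.369 CPM) in hepatocytes and 2.32 CPM in free RNA. Its fold over hepatocytes was 13.3 (6.66 to 30.2) in Pkhd1-high tumour, and free RNA alone would give 0.181 CPM of the hepatocyte level. On the scale with a pseudocount of 10 CPM, the log2 ratios of Pmaip1 and Bmf in Pkhd1-high tumour were 0.73 and 0.52, against 2.64 and 2.11 with 1 CPM.

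Bbc3, a classical target of p53, stayed within 2-fold of hepatocytes in both tumour gates and in ductal nuclei. It had 4.30 CPM (1.85 to 8.47) in hepatocyte-like tumour, 7.54 CPM (6.26 to 9.02) in Pkhd1-high tumour and 6.26 CPM (3.13 to 11.2) in ductal nuclei, against 5.12 CPM (4.26 to 6.10) in hepatocytes and 8.55 CPM in free RNA. No gate lay above free RNA. Its fold over hepatocytes was 0.839 (0.354 to 1.71) in hepatocyte-like tumour and 1.47 (1.14 to 1.91) in Pkhd1-high tumour. The first interval is wide enough to include a level more than 2-fold lower. In the Zfp804a and Hmga2 type, a subset of the Pkhd1-high gate described below, Bbc3 was 2.48-fold (1.60 to 3.74) over hepatocytes. Its level there, 12.7 CPM, overlapped that of free RNA. At its share of the UMIs, free RNA would bring 1.21 CPM to that type and 0.665 CPM to hepatocytes.

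For the pore formers the interval of no gate lay above free RNA, and 5 of 14 gates lay below it for each gene. Bax was at 18.8 CPM (13.1 to 26.1) in hepatocyte-like tumour, 23.6 CPM (21.3 to 26.1) in Pkhd1-high tumour and 17.6 CPM (11.99 to 25.1) in ductal nuclei, against 15.6 CPM (14.04 to 17.2) in hepatocytes and 28.1 CPM in free RNA. Its fold over hepatocytes was 1.21 (0.829 to 1.71) in hepatocyte-like tumour and 1.51 (1.31 to 1.75) in Pkhd1-high tumour. Both intervals end below 2-fold. At its share of the UMIs, free RNA would bring 4.65 CPM of Bax to hepatocyte-like tumour, 3.90 to Pkhd1-high tumour and 2.18 to hepatocytes. Bak1 was at 8.59 CPM (4.91 to 13.95) in hepatocyte-like tumour, 7.10 CPM (5.86 to 8.54) in Pkhd1-high tumour and 7.97 CPM (4.36 to 13.4) in ductal nuclei, against 3.65 CPM (2.93 to 4.49) in hepatocytes and 12.3 CPM in free RNA.

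In hepatocyte-like tumour the Bak1 fold was 2.36 (1.29 to 4.04), resting on 16 UMIs there. Its log2 ratio of 1.05 fell short of 2-fold when mixed nuclei were kept (0.98), when nuclei with very high UMI counts were left out (0.87), with clusters in place of gates (0.79), with a pseudocount of 10 CPM (0.45), when centred on the median gene (0.89) and against periportal hepatocytes (0.98). In Pkhd1-high tumour the Bak1 fold was 1.95 (1.46 to 2.60). In the Zfp804a and Hmga2 type of that gate it was 2.29 (1.31 to 3.78), resting on 19 UMIs there. Free RNA would bring 2.04 CPM of Bak1 to hepatocyte-like tumour, 1.71 to Pkhd1-high tumour and 0.959 to hepatocytes. Bak1 overlaps Ggnbp1, a gene on the other strand with 534 UMIs in hepatocytes, and the strand setting of the counting is not stated. Bcl2 overlaps 1 antisense gene, D630008O14Rik, with 4 UMIs in hepatocyte-like tumour, 24 in Pkhd1-high tumour and 2 in hepatocytes.

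Bcl2l14 had 0 UMIs in hepatocyte-like tumour, which allows up to 1.61 CPM, and 15 UMIs (0.943 CPM; 0.528 to 1.56) in Pkhd1-high tumour. Ductal nuclei also had 0 UMIs, allowing up to 1.71 CPM, against 4 UMIs (0.164 CPM) in hepatocytes and 0.596 CPM in free RNA. It was not above free RNA in any gate, and 2 genes of the other strand overlap it.

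**Figure D3:**
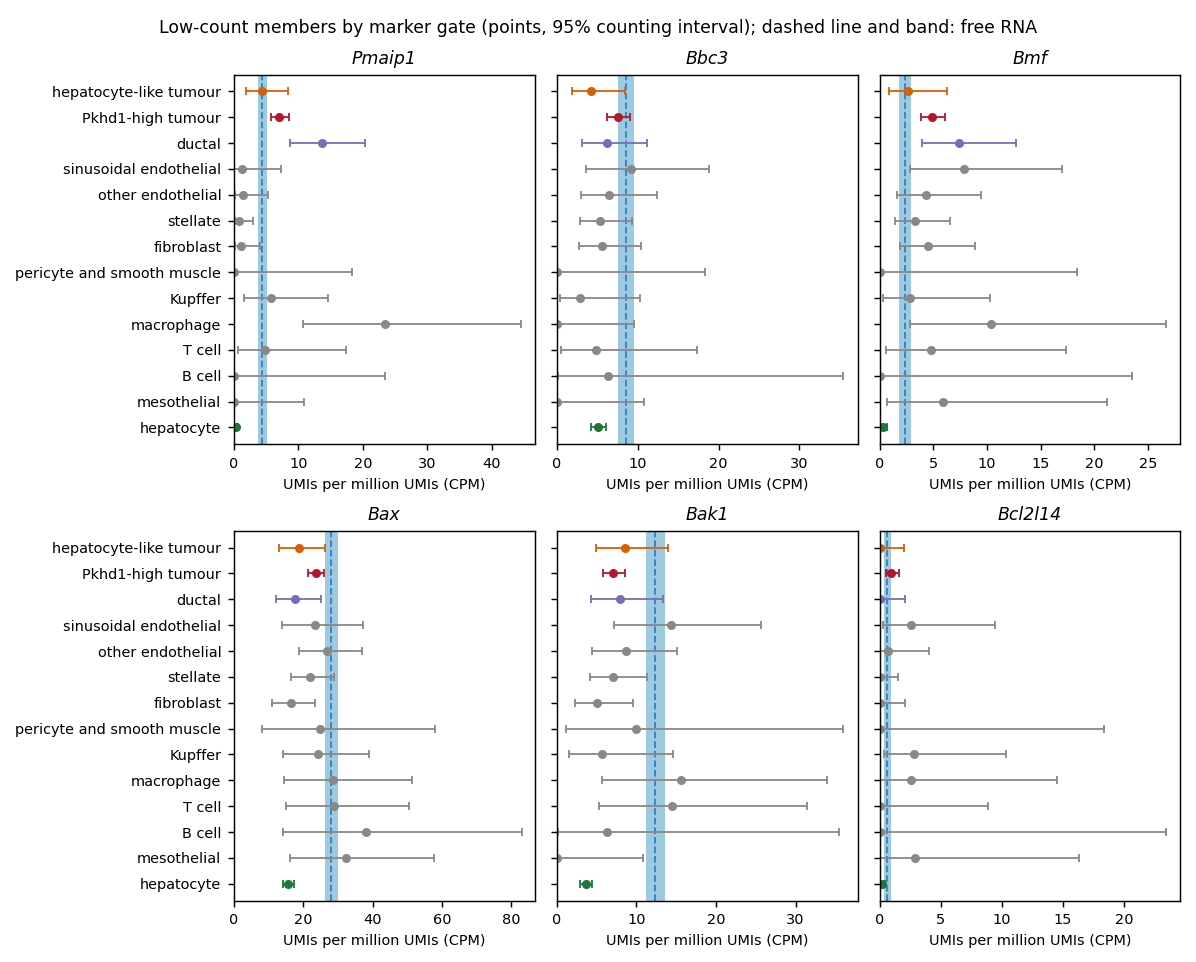
Levels of Pmaip1, Bbc3, Bmf, Bax, Bak1 and Bcl2l14 in the 14 gates, in CPM on linear axes; points are pooled levels, bars 95% counting intervals, and the dashed line with its band the level in free RNA. Bax and Bak1 points of the tumour gates lie left of the free RNA line, at 28.1 and 12.3 CPM.

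Members were called higher where the log2 ratio, with a pseudocount of 1 CPM, reached 2-fold in members with at least 20 UMIs. In hepatocyte-like tumour against hepatocytes, 7 of the 10 members had that many UMIs, 4 of them (Bcl2, Bcl2l1, Bcl2l11 and Bak1) were at least 2-fold higher and 0 were lower. Of all genes with at least 100 UMIs, 12.9% were that much higher and 8.58% that much lower, and of those with at least 20 UMIs 17.6% and 8.39%. The median log2 ratio was 1.05 over the 7 members, and 0.16 over all genes with at least 100 UMIs. In Pkhd1-high tumour against hepatocytes, 9 members could be counted, 5 of them (Bcl2, Bcl2l1, Bcl2l11, Pmaip1 and Bmf) were at least 2-fold higher and 0 were lower. Among all genes 21.3% were higher and 15.0% lower with at least 100 UMIs, and 21.8% and 13.2% with at least 20. The median log2 ratio was 2.11 over the 9 members and 0.22 over all genes with at least 100 UMIs. Relative to those shifts of all genes, the medians of the members were 0.89 and 1.89.

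In ductal nuclei against hepatocytes, 6 of 9 members were at least 2-fold higher, the 5 named for Pkhd1-high tumour and Mcl1, and 0 were lower, with a median log2 ratio of 2.06. Of all genes with at least 100 UMIs, a higher limit than the 20 asked of members, 16.9% were higher and 14.2% lower, with a median of 0.14. The 3 comparisons share the hepatocyte nuclei, so the likeness of their lists is no separate result. With 10 members chosen by function, these counts describe the members and are not a test of them as a set.

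**Figure D4:**
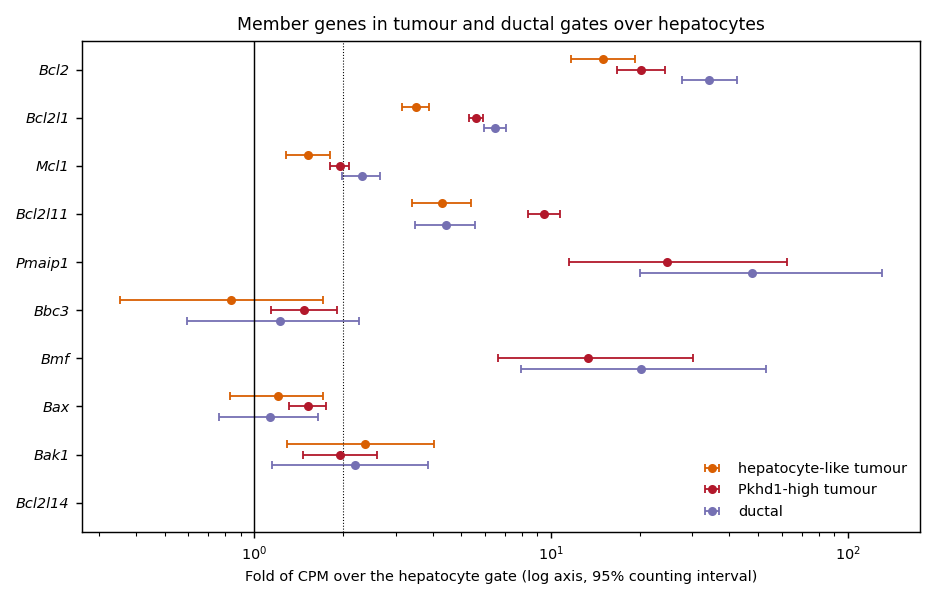
Fold of CPM over the hepatocyte gate for each member in hepatocyte-like tumour, Pkhd1-high tumour and ductal nuclei, on a log axis, with 95% counting intervals; members with under 20 UMIs in a comparison are not drawn. Bcl2 folds of 14.98, 20.1 and 34.1 lie far right of the dotted 2-fold line, and both tumour folds of Bax lie left of it.

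Of all genes with at least 100 UMIs, 8.93% were at least 2-fold higher and 8.82% that much lower in hepatocyte-like than in Pkhd1-high tumour. Set directly against each other, the 2 tumour gates differed by 2-fold in 1 of 9 counted members. That member was Bcl2l11, at 0.454 (0.368 to 0.554) of its Pkhd1-high level in hepatocyte-like tumour. Bcl2l1 was at 0.625 (0.568 to 0.687) and Bcl2 at 0.747 (0.625 to 0.886) of the Pkhd1-high level, both under 2-fold with intervals that exclude equal levels. Mcl1 was at 0.786 (0.660 to 0.929) of it.

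Pkhd1-high against ductal nuclei also differed by 2-fold in 1 of 9 members, again Bcl2l11, which was 2.14-fold (1.75 to 2.65) higher in Pkhd1-high tumour. Of all genes with at least 100 UMIs, 8.02% were higher and 7.98% lower. Bcl2 was at 0.589 (0.521 to 0.667) and Pmaip1 at 0.515 (0.329 to 0.838) of the ductal level in Pkhd1-high tumour. Bcl2l1 was at 0.861 (0.800 to 0.928).

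Within Pkhd1-high tumour, 224 nuclei carried Zfp804a or Hmga2 and 867 carried Kcnj16 or Slc8a3, genes that marked these types and were not members. The other nuclei of the gate met markers of neither type or of both, or were dividing, and were left out of these types. Pkhd1 itself was at 710 CPM in the Zfp804a and Hmga2 type and 3951 in the Kcnj16 and Slc8a3 type, so the name of the gate does not describe the first, which lay below hepatocyte-like tumour (1487 CPM). The types also differed in marker lists of other lineages. The endothelial list summed to 493 CPM in the Zfp804a and Hmga2 type and 60.4 in the Kcnj16 and Slc8a3 type, with Flt1 at 398 and 11.04 CPM. The B cell list summed to 215 and 39.9 CPM, with Ralgps2 at 117 and 14.6 CPM and Bank1 at 70.2 and 3.55 CPM. Their part in the results that follow was not tested. No counted member of 9 differed by 2-fold between the types. Of all genes with at least 100 UMIs, 4.94% were higher and 7.80% lower in the Zfp804a and Hmga2 type. Bcl2l1 was at 488 CPM (460 to 518) in the Zfp804a and Hmga2 type and 333 CPM (320 to 346) in the Kcnj16 and Slc8a3 type, a fold of 1.46 (1.36 to 1.57). Bcl2 ran the other way, at 78.5 CPM (67.4 to 90.9) and 106 CPM (99.1 to 114), a fold of 0.738 (0.625 to 0.869). Bcl2l11 did so too, at 97.8 CPM (85.4 to 111) and 131 CPM (123 to 139), a fold of 0.749 (0.645 to 0.867). Bbc3 was at 12.7 CPM and 6.31 CPM, a fold of 2.02 (1.23 to 3.26) that stayed under the limit on the scale with a pseudocount. Bmf was likewise at 8.77 CPM and 4.07 CPM, a fold of 2.15 (1.16 to 3.90).

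Dividing Pkhd1-high nuclei, 72 in number, carried the proliferation genes. They were taken whichever type markers they met, so they may mix types. Their Bcl2l11 level was 145 CPM (123 to 170) against 131 CPM in the Kcnj16 and Slc8a3 type, a fold of 1.11 (0.934 to 1.32). Bcl2l1 was at 386 CPM (349 to 425) in dividing nuclei against 333 CPM in that type, a fold of 1.16 (1.04 to 1.28). Its interval in dividing nuclei included the level of the whole Pkhd1-high gate, 397 CPM. It lay below the Zfp804a and Hmga2 type, at 488 CPM (460 to 518), so the Bcl2l1 rise depends on the type compared. Over the Kcnj16 and Slc8a3 type, the folds of Bcl2 (0.929; 0.751 to 1.14) and Mcl1 (0.828; 0.659 to 1.03) included 1.

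Among hepatocytes, 364 pericentral and 581 periportal nuclei were compared, since hepatocytes near the central vein and near the portal vein differ in their work. Bcl2l11 was at 17.0 CPM (14.2 to 20.2) in pericentral and 8.62 CPM (6.93 to 10.6) in periportal nuclei, a fold of 1.97 (1.496 to 2.62). Bcl2l1 was at 83.8 and 64.1 CPM, a fold of 1.31 (1.17 to 1.46), and Mcl1 at 59.4 and 50.2 CPM, a fold of 1.18 (1.04 to 1.35). The folds of Bcl2 (0.747; 0.477 to 1.15), Bbc3, Bax and Bak1 included 1. Free RNA shares were alike in both zones, 7.83% and 7.40%.

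Shares of nuclei with a UMI were compared at equal depth. Each nucleus was thinned to 2000 UMIs, which left out 5 hepatocyte-like tumour nuclei, 10 Pkhd1-high, 9 ductal and 13 hepatocyte nuclei. A Bcl2 UMI was then found in 12.2% (8.35 to 17.1) of hepatocyte-like tumour, 17.2% (15.5 to 19.1) of Pkhd1-high and 26.4% (22.0 to 31.2) of ductal nuclei, against 1.40% (0.834 to 2.21) of hepatocytes. Without thinning those shares were 27.3%, 42.2% and 42.9%, against 5.94% of hepatocytes. For Bcl2l1 the thinned shares were 31.2% (25.4 to 37.5), 47.8% (45.4 to 50.1) and 52.3% (47.1 to 57.5), against 13.9% (12.03 to 15.9), where the unthinned ones, 62.4%, 80.5% and 75.8% against 63.9%, compare nuclei of unequal depth. A Bcl2l11 UMI was found in 9.28% (5.91 to 13.7), 17.8% (16.1 to 19.7) and 9.43% (6.66 to 12.9), against 3.12% (2.24 to 4.22). Mcl1 gave 13.1% (9.06 to 18.0), 18.7% (16.9 to 20.7) and 18.9% (15.01 to 23.2), against 9.59% (8.03 to 11.3), so the intervals of hepatocyte-like tumour and hepatocytes overlapped.

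For Bcl2, Bcl2l1 and Bcl2l11 both tumour gates and ductal nuclei lay above hepatocytes in thinned shares, as in CPM. Other differences in CPM were not apart in thinned shares, such as that of Bcl2 between hepatocyte-like and Pkhd1-high tumour and that of Bcl2l1 between Pkhd1-high and ductal nuclei. Mcl1 in dividing nuclei had a thinned share of 27.8% (17.9 to 39.6) against 18.2% (15.7 to 20.9) in the Kcnj16 and Slc8a3 type, while its CPM fold lay under 1, so no order is read from either.

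**Figure D5:**
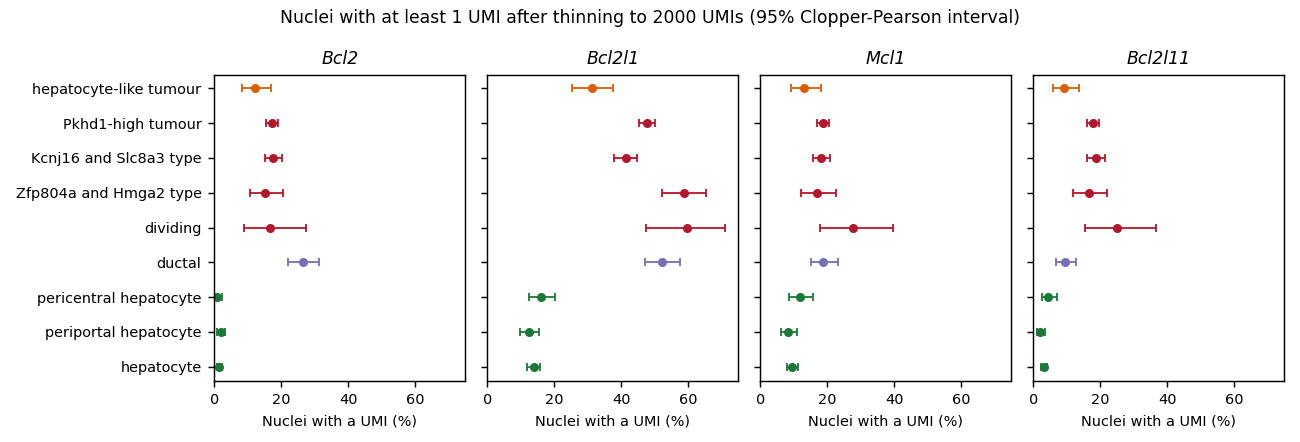
Percent of nuclei with at least 1 UMI of Bcl2, Bcl2l1, Mcl1 or Bcl2l11 after thinning each nucleus to 2000 UMIs, with exact 95% Clopper-Pearson intervals, in the tumour gates, the types within Pkhd1-high tumour, ductal nuclei and hepatocytes. Bcl2l1 reaches 58.9% in the Zfp804a and Hmga2 type and 13.9% in hepatocytes.

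Of 13 other BCL2 family genes, 9 could be counted. In hepatocyte-like tumour 1 of them was at least 2-fold higher than in hepatocytes, and in Pkhd1-high tumour 0, where 17.6% and 21.8% of all genes with at least 20 UMIs were that much higher. The 1 was Bik, a BH3-only gene of the endoplasmic reticulum, at 39.7 CPM in hepatocyte-like tumour and 3.71 in Pkhd1-high tumour, against 5.94 in hepatocytes. In ductal nuclei Bik and Bok were higher, by log2 ratios of 1.78 and 1.58, and Bcl2l15 was lower by -1.21, where 16.9% of all genes with at least 100 UMIs were higher and 14.2% lower. Bcl2l2, the gene of BCL-W, was at 18.8 and 19.7 CPM in the 2 tumour gates, against 14.01 in hepatocytes. Bid, which caspase-8 cuts to join the death receptor route to mitochondria, was at 30.1 and 27.2 CPM, against 16.4.

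Downstream of the pore, of 14 genes of the apoptosome, the caspases and their inhibitors, 4 were at least 2-fold higher and 0 lower in hepatocyte-like tumour, and 6 higher and 1 lower in Pkhd1-high tumour, with median log2 ratios of 0.31 and 0.91. Those counts are 4 and 6 of 14, where 17.6% and 21.8% of all genes with at least 20 UMIs were higher and the medians over genes with at least 100 UMIs were 0.16 and 0.22. Apaf1, the core of the apoptosome, was at 66.1 CPM in hepatocyte-like tumour and 140 CPM in Pkhd1-high tumour, against 25.8 CPM in hepatocytes. Birc2 and Birc3, inhibitors of apoptosis and ubiquitin ligases, were at 352 and 199 CPM in hepatocyte-like tumour and 293 and 107 CPM in Pkhd1-high tumour, against 64.8 and 50.7 CPM in hepatocytes. Casp2 was at 19.9 CPM in hepatocyte-like tumour, a log2 ratio of 1.42, and Htra2, a mitochondrial protease that blocks such inhibitors, at 22.8 CPM in Pkhd1-high tumour, a log2 ratio of 1.35. Xiap, the direct caspase inhibitor, was at 340 CPM in hepatocyte-like tumour and 219 CPM in Pkhd1-high tumour, against 486 CPM in hepatocytes, and its log2 ratio of -1.14 made it the 1 lower gene there. Casp9 was at 9.13 and 11.3 CPM in the 2 tumour gates, against 11.3 CPM in hepatocytes.

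Of 14 genes of p53 and its targets, 3 of 13 counted were higher and 1 lower in hepatocyte-like tumour, and 4 of 14 were higher and 2 lower in Pkhd1-high tumour, with median log2 ratios of 0.38 and 0.35. These counts are near the share of all genes with at least 20 UMIs, of which 17.6% were higher and 8.39% lower in hepatocyte-like tumour, and 21.8% and 13.2% in Pkhd1-high tumour. Cdkn1a, the cell cycle inhibitor p21, was at 38.1 CPM in hepatocyte-like tumour and 34.5 in Pkhd1-high tumour, against 14.5 in hepatocytes. Tnfrsf10b, a death receptor, was at 4.30 and 4.65 CPM, against 1.19. A count of 3 UMIs makes 1.61 CPM in hepatocyte-like tumour, so the level there rests on few UMIs. Trp53 itself was at 48.3 and 69.6 CPM, against 26.6, a log2 ratio of 0.84 in hepatocyte-like tumour and 1.35 in Pkhd1-high tumour. Phlda3, an AKT inhibitor, had a log2 ratio of 1.83 in Pkhd1-high tumour, and Eda2r, a receptor of the TNF family, was lower by -1.54 in hepatocyte-like tumour. The 2 genes lower in Pkhd1-high tumour were Eda2r and Perp, a membrane protein of desmosomes, with log2 ratios of -1.22 and -1.11.

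Of 5 genes listed for a direct or indirect link to MCL1 protein turnover, Dusp6 was the 1 gene at least 2-fold higher in each tumour gate. Dusp6, a phosphatase of ERK, was at 19.3 CPM in hepatocyte-like tumour and 20.7 in Pkhd1-high tumour, against 5.49 in hepatocytes. A count of 1 in 5 is near the 17.6% and 21.8% of all genes with at least 20 UMIs that were higher. Fbxw7 and Huwe1, which mark MCL1 for destruction, were at 163 and 389 CPM in hepatocyte-like tumour and 192 and 442 CPM in Pkhd1-high tumour, against 127 and 361 CPM in hepatocytes. Usp9x, which protects MCL1, was at 314 and 344 CPM in the tumour gates, against 294 CPM. The median log2 ratios of the 5 were 0.11 and 0.29.

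Of 7 FOXO and stress factors that induce BH3-only genes, 2 were higher in hepatocyte-like tumour and 3 in Pkhd1-high tumour, and 0 lower, with median log2 ratios of 0.37 and 0.19. Of all genes with at least 20 UMIs, 17.6% and 21.8% were higher. Trib3, an AKT-binding pseudokinase of the stress response, was at 10.2 CPM in hepatocyte-like tumour and 12.8 in Pkhd1-high tumour, against 1.88 in hepatocytes. E2f1 was at 11.3 and 10.4 CPM, against 2.38. Ddit3, the stress factor CHOP that can induce Bcl2l11, was at 44.0 CPM in hepatocyte-like tumour and 127 CPM in Pkhd1-high tumour, against 34.0 CPM in hepatocytes. Foxo3 was at 204 and 210 CPM, against 194, and Foxo1 at 398 and 145 CPM, against 253. Between the 2 tumour gates, Ddit3 and Foxo1 differed by log2 ratios of -1.51 and 1.46, hepatocyte-like over Pkhd1-high.

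The genes whose levels over the 13 gates of at least 50 nuclei were most like each member were found among 12645 genes. For Bcl2 they were Tubb5 (r = 0.930), Rasa2 (0.922) and Nxpe3 (0.919). Tmpo (r = 0.960), Unc5cl (0.960) and Acadl (0.9505) were most like Bcl2l1. Wdr48 (0.920), Actr2 (0.907) and Pgd (0.902) were most like Mcl1, and Prr5l (0.917), Ralb (0.906) and Adam10 (0.899) most like Bcl2l11. Bbc3 was nearest to Pfkm (0.944), Gm47272 (0.930) and Gm11520 (0.914), Bax to Ly6a (0.894), Vps35 (0.894) and Eif2s3x (0.877), and Bak1 to Bag6 (0.937), Gstm7 (0.933) and Jak3 (0.931). Each r is Pearson's, a description over 13 pooled gates of the log2 level, which share 1 matrix and differ in depth and free RNA. Pmaip1, Bmf and Bcl2l14 had under 200 UMIs and were not matched.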

How the data were processed

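Nuclear RNA of residual mouse HCC was measured in 2 samples, held as 1 pooled matrix. The deposited values are UMI counts per gene and barcode, without normalization. They were made with Cell Ranger 5.0 on mm10, per the submitters' processing notes. Called barcodes come from version 5.0.0 and all barcodes from version 4, per the file headers. Intron and strand settings are not given in the sources used. The called matrix holds 95130408 UMIs, 891 to 125991 a barcode.

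Nuclei with fewer than 500 UMIs, fewer than 300 genes or over 5% mitochondrial UMIs were removed (758 in all). A marker counted as met at 2 times the count expected from free RNA or more, with a Poisson tail under 0.02. Hepatocytes needed 3 of 11 markers without Ccnd3, Pkhd1-high tumour 3 of 11 with Ahnak2 or Peg3, and ductal nuclei 4 of 12 with Pkhd1 and Asz1 or Tinag. Hepatocyte-like tumour needed Ccnd3, 2 of 10 tumour markers and either a periportal marker or a foetal marker with a hepatocyte marker, without Kyat3, Abcb11, Ahnak2, Peg3, Asz1 or Tinag. These numbers were loosened over 3 versions after marker counts and clusters had been seen, and C6 and Ralgps2 were dropped from the Kupffer and B cell counts. Hepatocytes could meet at most 1 marker of each tumour list, and hepatocyte-like tumour at most 2 Pkhd1-high markers. Pkhd1-high and ductal nuclei could meet at most 2 hepatocyte markers. Asz1 and Tinag were barred from Pkhd1-high nuclei, and Ahnak2 from ductal nuclei. The members, lists, motifs and gates were chosen with earlier results of these data known. No doublet caller was run, and nuclei of more than 1 lineage were left out instead.

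UMIs were summed per gate and set per 1000000 UMIs (CPM), with exact Poisson intervals. Folds carry the exact conditional interval of 2 Poisson counts, and a level of 0 the limit of 3 counts. Calls use ratios of log2(CPM + 1), which understate the change of low genes. Shares carry exact Clopper-Pearson intervals. All 10 members are named. Lists name the 3 genes furthest past 2-fold per comparison, and other list genes and leading marker genes were named after their values were seen. Gene overlaps follow GENCODE M21. Leiden clusters made without member and list genes (scanpy 1.11.5, leidenalg 0.10.2, 2000 variable genes, 30 components, 15 neighbours, resolution 1.5) served as an alternative. The computation of folds and intervals was tested on simulated data. Numpy 2.4.6 and scipy 1.17.1 were used.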

Additional observations from a re-analysis of the deposited data

How the results depend on the processing

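The 2 comparisons of tumour nuclei with hepatocytes were recomputed under 17 other settings (free RNA subtracted, stricter gates, clusters, depth, scaling, pooling, minimum counts, pseudocounts), of which the 2 hepatocyte zones and the overlap of gate and cluster were added after seeing the data. The counts of higher and lower members stayed within 1.5 times and the median log2 ratios within their counting interval, except with a pseudocount of 10 CPM, which flattens members of low level. It left 3 members at least 2-fold higher in Pkhd1-high tumour and a median log2 ratio of 0.73, and it took the median in hepatocyte-like tumour to 0.53, against 1.05. Of the 140 member and gate pairs, 49 lay above free RNA of 500 to under 850 UMIs. Against free RNA of 1 to 100 UMIs, a comparison added after seeing the data, 33 did, and with that profile subtracted as well 38 did. Asking for intervals that do not overlap left 45 pairs with the profile of 500 to under 850 UMIs and 27 with that of 1 to 100. Of 272 values for single members, 232 stayed within the counting interval, 40 moved beyond it and 0 turned a call of 2-fold round. The Bcl2 log2 ratio ran between 2.53 and 5.14 in hepatocyte-like tumour and between 2.90 and 5.58 in Pkhd1-high tumour, lowest with the pseudocount of 10 CPM and highest with free RNA of 1 to 100 UMIs subtracted. Bbc3 ran between -0.69 and 0.39 and Bax between -0.27 and 0.38 in hepatocyte-like tumour, so neither has a direction there. Clusters gave no count of pairs above free RNA, because the sinusoidal endothelial, Kupffer, pericyte and B cell gates matched no cluster. Thinning to 1000 or 3000 UMIs, or none, gave 37, 44 and 25 share pairs above hepatocytes, against 36 of 130 with 2000. No paired analysis was possible because nuclei of the pooled matrix cannot be traced to a sample, and so neither sample could be left out in turn. Depth limits Pmaip1, Bmf, Bbc3, Bak1 and Bcl2l14, with 26 to 307 UMIs over the 13 gates of at least 50 nuclei.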
